A study of Mus musculus with 62 samples.

Results

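Class 3 and class 2 monocytes were compared directly: 2 RNA-sequencing libraries of each, 4 of the 62 libraries in the study, chosen by the class named in the sample titles. Both classes were labelled as primary monocytes, sorted by flow cytometry from mouse bone marrow; the classes, 1 to 4, are known here only by their numbers. The sources used here give neither gates nor the strain, sex or age of the mice, nor whether the 2 libraries of a class came from separate animals or sorts. The p-values therefore speak only for the spread among these libraries, which may be technical. The counts themselves read as female in both classes: Xist had 1320 to 3604 counts in the 4 libraries. The Y-linked genes Ddx3y, Eif2s3y, Kdm5d and Uty had at most 1 count each in any of them. The other libraries were 2 each of class 1, class 4, classical, intermediate and nonclassical monocytes, and 48 of 24 ER-Hoxb8 clones (bone marrow progenitors held in division by an estrogen-dependent Hoxb8 protein), 1 progenitor and 1 monocytic library a clone. The 4 libraries compared held 23.1 to 35 M counts each (M, 1e6 counts).

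Monocytes arise in the bone marrow from dividing progenitors that make the enzymes of primary granules, the stores of myeloperoxidase and serine proteases shared with young neutrophils. As they mature they leave the cell cycle and take up receptors for microbes and antibodies. In mice, classical monocytes carry much Ly6C and CCR2, the receptor that draws them out of the marrow, while nonclassical monocytes carry little Ly6C and much CX3CR1, and depend on the nuclear receptor NR4A1.

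Levels are given as CPM, counts per 1e6 counts of a library after scaling by TMM (trimmed mean of M-values) factors, and differences as log2 of class 3 over class 2, from edgeR's quasi-likelihood test. A gene is called higher or lower in class 3 at a Benjamini-Hochberg adjusted p under 0.05 over all genes tested. Of 13686 genes tested, 3310 passed, or 24.2%: 1614 were higher in class 3 (11.8%) and 1696 lower (12.4%). At least 8-fold differences were seen in 377 of the higher and 211 of the lower genes, and the median over all genes tested was -0.07. With total counts in place of TMM factors this median was 0.17, and 66.5% of the calls were higher in class 3 against 48.8%, so small differences depend on the scaling. Without class 2 library 1 the count was 2145, without class 2 library 2 it was 2170, without class 3 library 1 it was 1934 and without class 3 library 2 it was 1922. In the same fit 9.29% of genes differed between classes 2 and 1, 13.4% between 3 and 1, 25.1% between 4 and 1, 40.9% between 4 and 2, and 28.6% between 4 and 3. The log2 CPM profiles correlated at 0.979 between the class 2 libraries and 0.978 between the class 3 libraries, against 0.908 to 0.913 across the classes. In bulk RNA, fewer cells expressing a gene and less of its RNA per cell cannot be told apart, here and below.

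**Figure D1:**
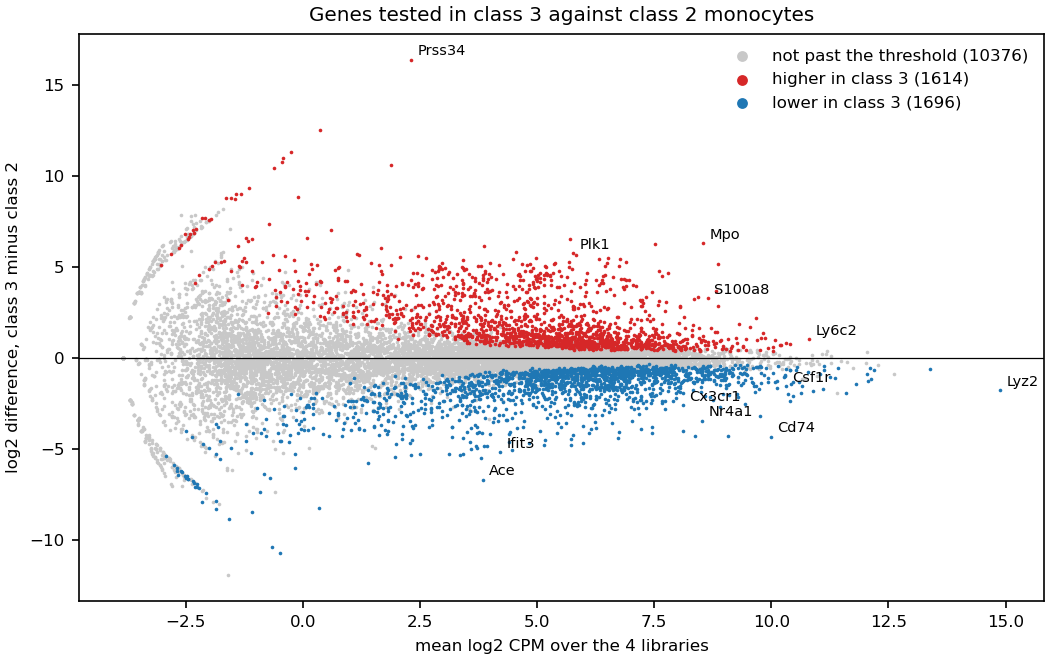
Each point is 1 of the 13686 genes tested, by its mean log2 CPM over the 4 libraries (x axis) and its log2 difference, class 3 minus class 2 (y axis); red, higher in class 3 (1614); blue, lower (1696); grey, not past the threshold (10376). Mpo and Plk1 lie far above the line, Ace, Ifit3 and Cd74 far below it. The arcs at the left are genes with 0 counts in one class, whose fitted differences depend on the prior count.

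Markers that define monocytes were present in all 4 libraries, at lower levels in class 3 with the exception of Ly6c2. Lyz2, encoding lysozyme and the most abundant transcript of every one of them, stood at 57630 and 53980 CPM in class 2 and 18240 and 14490 CPM in class 3 (log2 difference -1.77 ± 0.14 (SE), adjusted p = 8.75e-05). Its counts include reads that may be shared with the near-identical Lyz1. Csf1r, the receptor for the growth factor that maintains monocytes, had 1896 and 2487 CPM in class 2 and 759 and 742 CPM in class 3 (log2 difference -1.54 ± 0.16 (SE), adjusted p = 0.000255). Itgam, an integrin chain of the myeloid lineage, had 1040 and 1214 CPM in class 2 and 322 and 219 CPM in class 3 (log2 difference -2.06 ± 0.20 (SE), adjusted p = 0.000215). Fcgr1, the high-affinity antibody receptor, had 96.1 and 78.8 CPM in class 2 and 18.6 and 9.69 CPM in class 3 (log2 difference -2.63 ± 0.29 (SE), adjusted p = 0.00042). The libraries of the classes did not overlap for any of these genes. Cd14, a co-receptor for lipopolysaccharide, had 441 and 234 CPM in class 2 and 132 and 121 CPM in class 3 (log2 difference -1.42 ± 0.30 (SE), adjusted p = 0.0101); this call was lost without class 3 library 1 (adjusted p = 0.0582) and without class 3 library 2 (adjusted p = 0.0777).

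The genes usually used to tell the monocyte subsets apart did not move as a block. Ly6c2, encoding the Ly6C antigen, was higher in class 3, at 2316 and 2785 CPM in class 3 and 1274 and 1252 CPM in class 2 (log2 difference 1.01 ± 0.13 (SE), adjusted p = 0.000897). Its sequence is close to that of other Ly6 genes, so its counts are less certain. Ccr2, the chemokine receptor paired with Ly6C in classical monocytes, was lower in class 3, at 1058 and 897 CPM in class 3 and 2485 and 2478 CPM in class 2 (log2 difference -1.34 ± 0.14 (SE), adjusted p = 0.000308). F13a1, a coagulation factor abundant in classical monocytes, had 3231 and 4444 CPM in class 2 and 5027 and 4362 CPM in class 3 (log2 difference 0.29 ± 0.18 (SE), adjusted p = 0.296). Its libraries overlapped between the classes, although it passed as higher when total counts were used (adjusted p = 0.0435). Of 19 genes listed for classical monocytes, 1 was higher (Ly6c2), 12 were lower and 6 did not pass, with a median of -1.34. The lower ones include the signal-regulatory protein Sirpb1a (-4.99) and the lectin Clec4a1 (-3.52). Another lectin, Clec4a3, which is not in this list, was also lower (-3.92).

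**Figure D2:**
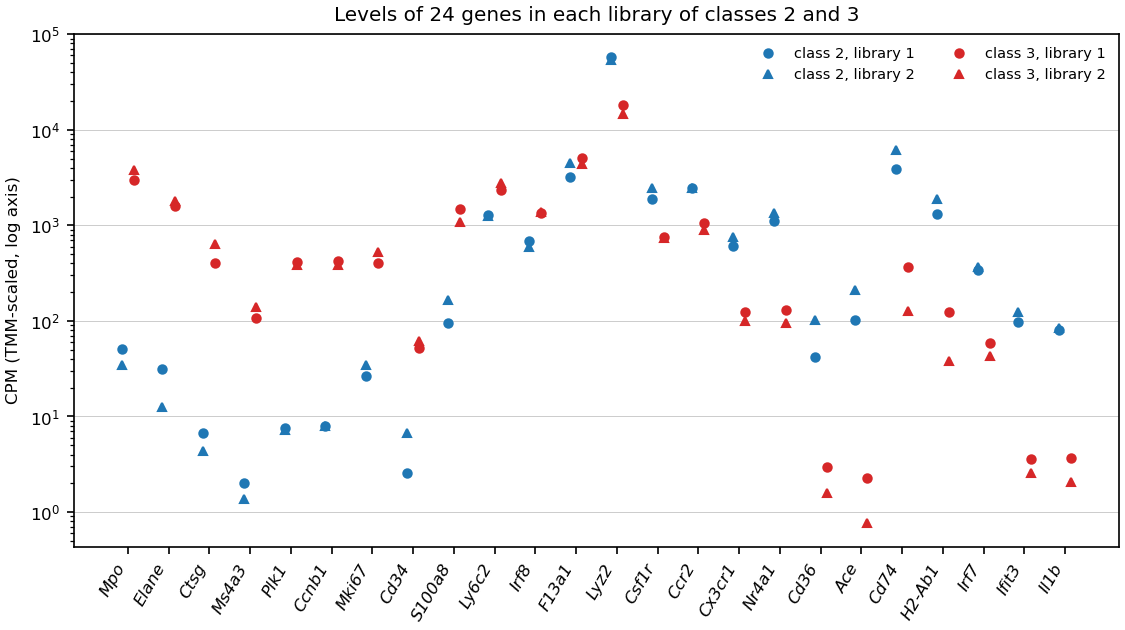
CPM on a log axis for 24 genes (x axis) in each library; blue, class 2; red, class 3; circle, library 1; triangle, library 2. The granule, cell cycle and Cd34 points of class 3 lie above those of class 2, the points of the 2 classes overlap for F13a1, and from Lyz2 to Il1b every class 3 point lies below both class 2 points.

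Genes of the cell cycle were higher in class 3. All 22 mitosis genes tested passed, each higher, with a median of 4.51 and a range of 3.01 to 5.75 on the log2 scale. Plk1, the kinase that drives entry into and exit from mitosis, had 7.55 and 7.25 CPM in class 2 and 410.5 and 387 CPM in class 3 (log2 difference 5.75 ± 0.21 (SE), adjusted p = 3.49e-06). Ccnb1, the mitotic cyclin B1, had 7.9 and 8.03 CPM in class 2 and 427 and 385 CPM in class 3 (log2 difference 5.67 ± 0.15 (SE), adjusted p = 3.37e-06). Cdk1, its kinase partner, had 7.52 and 8.91 CPM in class 2 and 307 and 333 CPM in class 3 (log2 difference 5.29 ± 0.18 (SE), adjusted p = 3.49e-06). The class 3 libraries were close to each other and more than 10-fold above both class 2 libraries. Ube2c, which marks mitotic proteins for destruction, had 12.4 and 15.1 CPM in class 2 and 599 and 629.5 CPM in class 3 (log2 difference 5.49). The spindle motor Kif11 had 12.4 and 18.6 CPM in class 2 and 512 and 496 CPM in class 3 (5.03). Top2a, which untangles chromosomes, had 31 and 43.5 CPM in class 2 and 1040 and 1009 CPM in class 3 (4.79). These 3 genes showed the same gap, with no overlap. Mki67, encoding the proliferation antigen Ki-67, stood at 26.4 and 35 CPM in class 2 and 405 and 524 CPM in class 3 (3.92). Other genes among the largest increases were the motor Kif2c (5.49), the spindle protein Nusap1 (5.43), Iqgap3 (5.84), Depdc1b (5.42) and Prr11 (5.36).

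DNA replication genes showed the same direction: 22 of 24 were higher and none lower, with a median of 3.16. Rrm2, a subunit of the enzyme that makes deoxyribonucleotides, had 28.4 and 28.1 CPM in class 2 and 598 and 517 CPM in class 3 (log2 difference 4.30 ± 0.14 (SE), adjusted p = 3.49e-06). Rrm1, its other subunit, had 28.9 and 42.5 CPM in class 2 and 584 and 501 CPM in class 3 (log2 difference 3.93). Tk1 and Tyms, which supply thymidine nucleotides, differed by 4.23 and 3.99. Mcm5, a part of the replicative helicase, had 45.6 and 52.1 CPM in class 2 and 469 and 403 CPM in class 3 (3.16). Cdc6, which loads that helicase, had 3.05 and 7.64 CPM in class 2 and 58.3 and 44.5 CPM in class 3 (3.29). E2f1, a transcription factor of this programme, was 1 of 2 that did not pass, at 32.2 and 38.9 CPM in class 2 and 62.7 and 47.6 CPM in class 3 (adjusted p = 0.0615), and passed with total counts (adjusted p = 0.0114). The other was Ung, which removes uracil from DNA, at 0.818 and 0.584 CPM in class 2 and 2.04 and 1.03 CPM in class 3 (adjusted p = 0.386). Summed over the list, the mitosis genes took 419.5 and 499.6 CPM in class 2, 10000 and 9840 in class 3, 4353 and 4609 in class 1 and 4184 and 4086 in class 4. Class 3 was therefore the highest of the 4 classes on this sum and class 2 the lowest, with no overlap between the libraries of these 2 classes and any other. The replication-dependent histones, made in S phase without a poly(A) tail, were less clear. Of these, 14 of 45 were higher and 1 lower, with a median of 2.19, but the count of higher genes was 26 in the 4-library fit and 5 with all 14 primary libraries. It was 2 without class 2 library 1, 4 without class 2 library 2, 3 without class 3 library 1 and 2 without class 3 library 2. Their summed level was 267 and 376 CPM in class 2 and 282 and 427 in class 3.

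The promoters of these genes are shown because short motifs of cell cycle promoters were found in part of each group. They come from RefSeq (GRCm38.p6, a later build than the mm9 of the counts), and are written 5′ to 3′ along the gene's strand. Promoter windows of 300 bases were matched by gene for 9108 of the 13686 genes tested. The sequence TTTGAA, the core of the cell cycle genes homology region (CHR), was in 13 of 18 mitosis windows (72.2%) on either strand, against 14.6% of all windows. The letters TTTCCCGC or TTTGGCGC, forms of the E2F site, were in 7 of 21 DNA replication windows (33.3%), against 3.48% of all windows. A match is a description of letters, not a shown binding site. Capitals mark the CHR letters in Ube2c (chr2:164769870-164769928, plus strand), Cdk1 (chr10:69352913-69352957, minus strand) and Kif11 (chr19:37376333-37376381, plus strand), and the E2F letters in Cdc6 (chr11:98907983-98908050, plus strand) and Mcm5 (chr8:75109330-75109397, plus strand). TTCAAA, GCGGGAAA and GCGCCAAA are these letters on the other strand.
Ube2c: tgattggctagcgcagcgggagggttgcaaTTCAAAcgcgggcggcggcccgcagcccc
Cdk1: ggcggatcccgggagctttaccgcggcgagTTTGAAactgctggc
Kif11: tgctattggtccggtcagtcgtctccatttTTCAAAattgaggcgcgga
Cdc6: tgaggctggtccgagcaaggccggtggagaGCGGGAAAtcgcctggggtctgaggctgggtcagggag
Mcm5: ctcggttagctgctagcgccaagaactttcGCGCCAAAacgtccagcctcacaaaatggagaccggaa

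Primary granule genes had some of the largest increases among well expressed genes. Of 12, 10 were higher in class 3, with a median of 5.22. Mpo, encoding myeloperoxidase, had 50.5 and 34.9 CPM in class 2 and 2949 and 3754 CPM in class 3 (log2 difference 6.29 ± 0.33 (SE), adjusted p = 8.34e-06). Elane, encoding neutrophil elastase, had 31.6 and 12.5 CPM in class 2 and 1577 and 1804 CPM in class 3 (log2 difference 6.25 ± 0.48 (SE), adjusted p = 6.18e-05). Ctsg, encoding cathepsin G, had 6.64 and 4.33 CPM in class 2 and 403 and 637 CPM in class 3 (log2 difference 6.55 ± 0.31 (SE), adjusted p = 6.45e-06). Prtn3, encoding proteinase 3, had 37.2 and 7.45 CPM in class 2 and 843.5 and 881 CPM in class 3 (log2 difference 5.25 ± 0.65 (SE), adjusted p = 0.000766). For each of the 4 enzymes both class 3 libraries lay more than 10-fold above both class 2 libraries. Ms4a3, a membrane protein of granulocyte-monocyte progenitors, had 2.01 and 1.36 CPM in class 2 and 106 and 138 CPM in class 3 (6.14). The 2 lower members were Srgn (-1.21), the proteoglycan that packs granule contents and that monocytes also make, and the lectin receptor Clec12a (-0.47). The Clec12a call was lost when any 1 of the 4 libraries was left out (adjusted p = 0.0782 to 0.214). Class 4 had more of these transcripts than class 3, at 11250 and 12770 CPM summed over the list against 7159 and 8488 in class 3, 1428 and 1217 in class 2 and 1817 and 2010 in class 1.

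Progenitor genes were higher in part. Cd34, a surface marker of stem and progenitor cells, had 2.58 and 6.76 CPM in class 2 and 51.6 and 61.9 CPM in class 3 (log2 difference 3.62 ± 0.48 (SE), adjusted p = 0.00107). Kit, the receptor for stem cell factor, had 0.881 and 0.535 CPM in class 2 and 7.36 and 5.08 CPM in class 3 (log2 difference 3.11 ± 0.55 (SE), adjusted p = 0.00478). Myb, a transcription factor of dividing progenitors, had 1.98 and 8.03 CPM in class 2 and 52.8 and 71.5 CPM in class 3 (log2 difference 3.67 ± 0.55 (SE), adjusted p = 0.00197). Gata2, a regulator of stem cells and of mast cells and basophils, had 1 and 0 counts in class 2 and 401 and 252 counts in class 3 (adjusted p = 0.000384), too few in class 2 for a fold. Flt3, a receptor of lymphoid and dendritic cell progenitors, was lower in class 3, at 26.5 and 18.5 CPM in class 3 and 53.7 and 83.4 CPM in class 2 (log2 difference -1.60 ± 0.35 (SE), adjusted p = 0.0124), a call that was lost without class 2 library 2 (adjusted p = 0.0859) and without class 3 library 2 (adjusted p = 0.104). Of 24 listed genes, 8 were higher, 2 were lower (Flt3 and Lmo2) and 14 did not pass; the median was 1.63, or 1.10 with genes at 0 counts in a class set at their bound. The count of lower genes was 1 without class 2 library 1, 0 without class 2 library 2, 1 without class 3 library 1 and 0 without class 3 library 2.

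Neutrophil genes moved both ways. Ngp, a protein of secondary granules, had 51 and 116 CPM in class 2 and 3878 and 2021 CPM in class 3 (log2 difference 5.15 ± 0.86 (SE), adjusted p = 0.00346). S100a8, a subunit of calprotectin, had 95.5 and 164 CPM in class 2 and 1482 and 1088 CPM in class 3 (log2 difference 3.31 ± 0.42 (SE), adjusted p = 0.000864). S100a9, its partner, had 60.9 and 173 CPM in class 2 and 1407 and 982.5 CPM in class 3 (log2 difference 3.35 ± 0.56 (SE), adjusted p = 0.00358). The class 3 libraries lay well above those of class 2, and library 1 of class 3 was the higher of its pair for all 3 genes. Camp, the cathelicidin precursor, had 10.8 and 24.1 CPM in class 2 and 932 and 585 CPM in class 3 (log2 difference 5.45 ± 1.03 (SE), adjusted p = 0.00617), a call lost without class 2 library 1 (adjusted p = 0.0635). Of 29 listed genes 12 were higher and 7 lower, with a median of 0.67; with all 14 primary libraries fitted the counts were 6 and 2. The lower ones include genes of mature neutrophils and of monocytes: the surface protein Cd177 (-1.46), the collagenase Mmp8 (-1.20) and the G-CSF receptor Csf3r (-0.99). With all 14 primary libraries the calls of Cd177 (adjusted p = 0.482) and Mmp8 (adjusted p = 0.281) were lost. Cxcr2, the chemokine receptor of mature neutrophils, had 0.787 and 7.2 CPM in class 2 and 3.97 and 3.34 CPM in class 3 (adjusted p = 0.964). Ly6g, the antigen used to sort them, had 5 and 4 counts in class 2 and 88 and 44 counts in class 3. The summed list was at 11530 and 7278 CPM in class 3 and 3245 and 3309 in class 2, against 49870 and 69790 in class 4.

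Basophil genes were present in class 3 and nearly absent from class 2. Prss34, a basophil serine protease, had 0 and 0 counts in class 2 and 15829 and 7227 counts in class 3 (adjusted p = 0.000102); set against a floor of 3 counts over the class 2 libraries, it was at least 6503-fold higher in class 3. Cpa3, carboxypeptidase A3 of mast cells and basophils, had 0 and 0 counts in class 2 and 1041 and 503 counts in class 3 (at least 435.5-fold, adjusted p = 0.00246). Ms4a2, the beta chain of the IgE receptor, had 0 and 0 counts in class 2 and 372 and 164 counts in class 3 (at least 151-fold, adjusted p = 0.000917). Mcpt8, a basophil protease, had 4 and 0 counts in class 2 and 5086 and 2454 counts in class 3 (adjusted p = 0.000185). In each case library 1 of class 3 held about 2 times the counts of library 2, and class 2 held almost none. Of 18 listed genes 7 were higher and none lower, and the count was 4 without class 2 library 1, 4 without class 2 library 2, 6 without class 3 library 1 and 7 without class 3 library 2. The median was 3.79, or 3.02 at the bounds. The eosinophil genes were low in both classes: Epx, eosinophil peroxidase, had 5 and 0 counts in class 2 and 0 and 10 counts in class 3, and Prg2, major basic protein, 6 and 1 counts in class 2 and 4 and 127 counts in class 3. The summed list reached 799.5 and 332 CPM in class 3, 3.27 and 5.11 in class 2, 20.1 and 23.9 in class 1 and 2841 and 1243 in class 4. The part of basophils and their precursors in the higher progenitor and granule genes of class 3 was not tested.

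**Figure D3:**
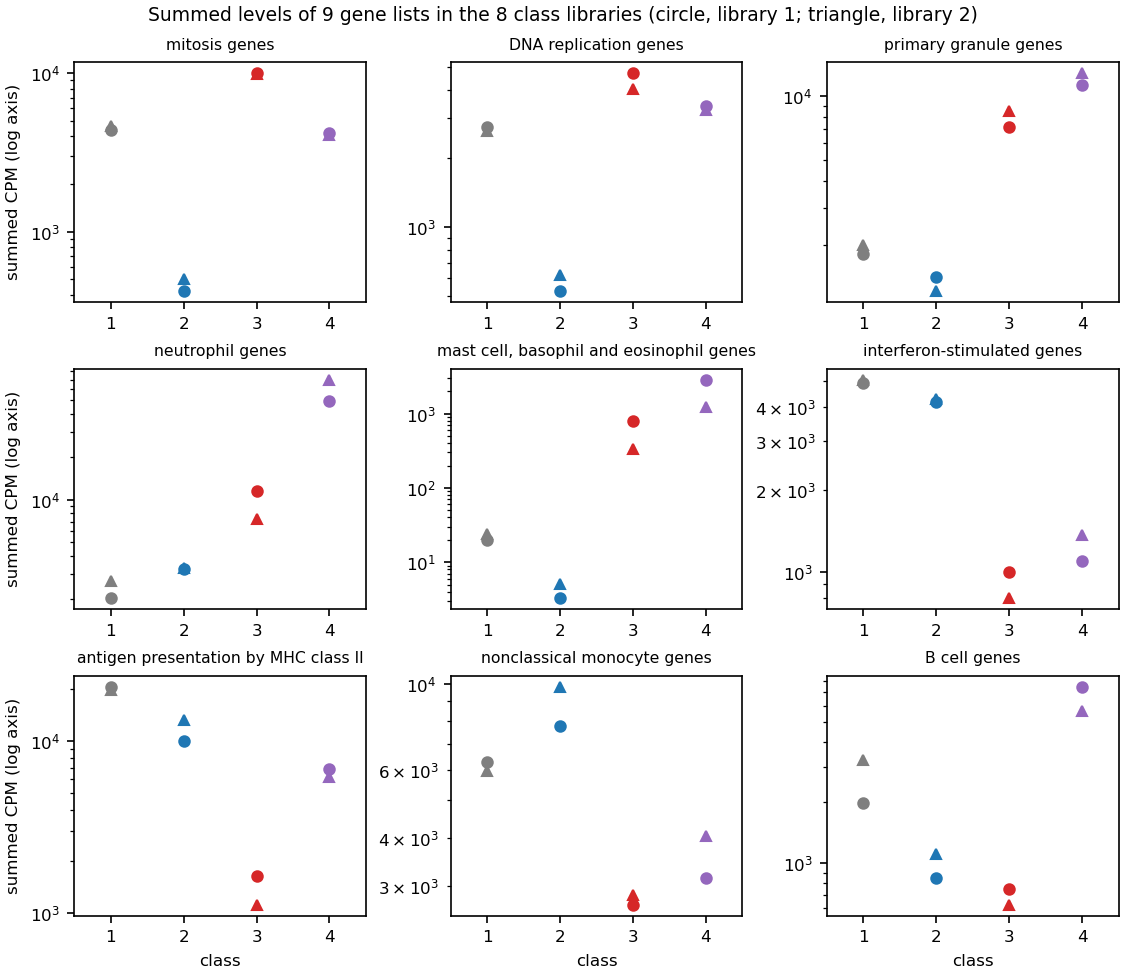
Summed CPM (log axis) of 9 gene lists in each library of classes 1 to 4 (x axis); circle, library 1; triangle, library 2. Class 3 is highest for the mitosis and DNA replication genes and lowest for the MHC class II genes, while class 4 is highest for the granule, neutrophil, basophil and B cell lists.

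Genes of nonclassical monocytes were lower in class 3. Of 27 listed genes 21 were lower and 2 higher, with a median of -2.68. Nr4a1, the nuclear receptor that nonclassical monocytes need, had 1107 and 1357 CPM in class 2 and 129 and 96.1 CPM in class 3 (log2 difference -3.45 ± 0.20 (SE), adjusted p = 1.62e-05). Cx3cr1, the fractalkine receptor, had 607 and 763 CPM in class 2 and 123.3 and 100.5 CPM in class 3 (log2 difference -2.61 ± 0.19 (SE), adjusted p = 4.53e-05). Ace, encoding angiotensin-converting enzyme, had 102 and 211 CPM in class 2 and 2.28 and 0.76 CPM in class 3 (log2 difference -6.70 ± 0.86 (SE), adjusted p = 0.000916). Cd36, a scavenger receptor for lipids, had 41.5 and 103 CPM in class 2 and 2.94 and 1.58 CPM in class 3 (log2 difference -5.00 ± 0.51 (SE), adjusted p = 0.000288). In all 4 genes both class 2 libraries lay far above both class 3 libraries; for Ace and Cd36 library 2 of class 2 was more than 2 times library 1. Other lower members were Cd300e (-5.37), Treml4 (-4.61), the sphingosine phosphate receptor S1pr5 (-4.61), the lipid chaperone Fabp4 (-3.73) and Cd274, encoding the checkpoint ligand PD-L1 (-2.91). Spn, encoding CD43, which marks nonclassical monocytes but also progenitors, went the other way, at 115 and 146 CPM in class 3 and 63.8 and 62.2 CPM in class 2 (log2 difference 1.05 ± 0.16 (SE), adjusted p = 0.00225). Rasgrp2 was the other higher member, at 182 and 198 CPM in class 3 and 137 and 105 CPM in class 2 (log2 difference 0.65 ± 0.18 (SE), adjusted p = 0.0309), a call lost without class 2 library 2 (adjusted p = 0.175), without class 3 library 1 (0.0932) and without class 3 library 2 (0.164). Nr4a1 is also an immediate early gene: of 22 such genes, induced within minutes of stimulation, 15 were lower and none higher, with a median of -1.46. With all 14 primary libraries 9 were lower. Atf3, a stress-induced repressor, had 2751 and 3210 CPM in class 2 and 825 and 562 CPM in class 3 (-2.10), and Ier5 differed by -2.34.

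Interferon-stimulated genes were lower in class 3, with a median of -2.77. Type I interferons act through transcription factors that bind the interferon-stimulated response element of target promoters. Of 30 genes tested 28 were lower in class 3 and none higher. Ifit3, which helps to bind foreign RNA, had 97.4 and 125 CPM in class 2 and 3.59 and 2.58 CPM in class 3 (log2 difference -5.17 ± 0.25 (SE), adjusted p = 6.45e-06). Ifit1, its partner, had 40.6 and 59.5 CPM in class 2 and 2.45 and 2.16 CPM in class 3 (log2 difference -4.44). Oas2, a sensor of viral RNA, had 67.8 and 63.8 CPM in class 2 and 1.94 and 1.46 CPM in class 3 (log2 difference -5.28 ± 0.42 (SE), adjusted p = 8.14e-05). Slfn5, a growth regulator, had 224 and 275 CPM in class 2 and 14 and 8.69 CPM in class 3 (-4.46). Irf7, the factor that amplifies interferon production, had 343 and 366 CPM in class 2 and 59.2 and 43.1 CPM in class 3 (-2.79). Isg15, a ubiquitin-like modifier, had 59.6 and 49 CPM in class 2 and 6.88 and 5.2 CPM in class 3 (-3.17). The libraries of the classes did not overlap in any of these 6 genes. Differences were smaller for 2 of the pathway's own factors: Stat2 (-1.59) and Irf9 (-0.94) were lower. Ifnar1, a chain of the interferon receptor, had 135 and 188 CPM in class 2 and 105 and 93.7 CPM in class 3 (-0.70, adjusted p = 0.0417). Its call was lost without class 2 library 2 (adjusted p = 0.244), class 3 library 1 (0.125) or class 3 library 2 (0.224). Ifnar2, the other chain, had 258.5 and 275 CPM in class 2 and 219 and 243 CPM in class 3 (adjusted p = 0.259). The summed list was 4161 and 4271 CPM in class 2, 4911 and 5033 in class 1, 1002 and 801 in class 3 and 1098 and 1359 in class 4.

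Upstream sequences of 3 of these genes are shown for the response element. The letters GAAANNGAAA, its core, were in 14 of 21 windows of this list (66.7%) on either strand, against 3.95% of all windows. Capitals mark them in Ifit3 (chr19:34583377-34583446, plus strand), Ifit1 (chr19:34640774-34640843, plus strand) and Slfn5 (chr11:82951917-82951986, plus strand); a run that starts with TTTC reads the core on the other strand. Ifit1 holds 2 such matches in the stretch shown.
Ifit3: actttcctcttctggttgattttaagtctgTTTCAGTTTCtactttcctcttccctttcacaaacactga
Ifit1: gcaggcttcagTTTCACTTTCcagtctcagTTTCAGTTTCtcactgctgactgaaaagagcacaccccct
Slfn5: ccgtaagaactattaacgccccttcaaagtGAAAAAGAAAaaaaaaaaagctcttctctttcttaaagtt

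Antigen presentation was lower in class 3. Cd74, the invariant chain that guides MHC class II molecules, had 3841 and 6144 CPM in class 2 and 368 and 127 CPM in class 3 (log2 difference -4.33 ± 0.49 (SE), adjusted p = 0.000476). H2-Ab1, a chain of a class II molecule itself, had 1308 and 1907 CPM in class 2 and 125 and 38.5 CPM in class 3 (log2 difference -4.30 ± 0.52 (SE), adjusted p = 0.000658). H2-Eb1, another such chain, had 409.9 and 660.3 CPM in class 2 and 37.2 and 12.4 CPM in class 3 (-4.43). The class 2 libraries exceeded those of class 3 in all 3 genes, and within class 3 library 2 was the lower. Of 12 listed genes 7 were lower and 5 did not pass, with a median of -2.55. B cells and dendritic cells also make these molecules. Of 21 B cell genes 16 were lower and none higher in class 3. The lower count was 14 without class 2 library 1, 10 without class 2 library 2, 11 without class 3 library 1 and 9 without class 3 library 2. Cd79a, a chain of the B cell receptor, had 32 and 52.9 CPM in class 2 and 11.4 and 6.35 CPM in class 3 (-2.26). Ms4a1, encoding CD20, had 16.5 and 38.2 CPM in class 2 and 6.01 and 3.16 CPM in class 3 (-2.57). Ighm, the IgM heavy chain, had 577 and 780 CPM in class 2 and 654 and 561 CPM in class 3 (adjusted p = 0.818). Summed, B cell genes were at 850 and 1111 CPM in class 2 and 744 and 623 in class 3, with Ighm giving most of it in every library. MHC class II genes were at 9958 and 13200 CPM in class 2 and 1646 and 1119 in class 3. Class 4, with 7469 and 5661 CPM of B cell genes, had 6903 and 6151 CPM of MHC class II genes, below class 2. Of 15 dendritic cell genes 4 were lower (Cd83, Batf3, Ccr7 and Cd209a), a share of 26.7% that is near the background of 24.2%. Their count was 3 without class 2 library 1, 1 without class 2 library 2, 3 without class 3 library 1 and 1 without class 3 library 2, and 7 with no filter on low counts. Their summed level was 905 and 1249 CPM in class 2 and 560 and 518 in class 3. The part of B cells and dendritic cells in the class II difference was not tested. In the MHC class I list 8 of 15 genes were lower and none higher, led by H2-Q7 (-1.99), with H2-K1 at 1820 and 1694 CPM in class 2 and 699.6 and 723 CPM in class 3 (log2 difference -1.30 ± 0.11 (SE), adjusted p = 0.000127). H2 genes are similar in sequence, so reads may be divided between them.

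Receptors by which monocytes meet microbes and debris were lower in class 3, and none of them passed as higher. Of 24 pattern recognition receptors 17 were lower (median -2.01). Tlr2, a receptor for bacterial lipoproteins, had 494 and 475 CPM in class 2 and 92.5 and 77.5 CPM in class 3 (log2 difference -2.51 ± 0.13 (SE), adjusted p = 9.33e-06). Tlr7, which senses RNA, had 86.1 and 113 CPM in class 2 and 9.88 and 4.59 CPM in class 3 (log2 difference -3.79). Clec4e, a lectin for mycobacterial lipids, had 186.5 and 148 CPM in class 2 and 31.3 and 20.4 CPM in class 3 (-2.69). Each of these 3 had both class 3 libraries below both class 2 libraries. Of 22 Fc, complement and scavenger receptors 16 were lower (median -1.80), among them the antibody receptor Fcgr4, at 62.8 and 51.1 CPM in class 2 and 4.67 and 2.13 CPM in class 3 (-4.07). Lrp1, a receptor that takes up many ligands, had 558 and 594 CPM in class 2 and 70.2 and 90.8 CPM in class 3 (-2.84). Of 27 inflammatory genes 19 were lower (median -1.81). Il1b, encoding interleukin-1 beta, had 79.5 and 83.7 CPM in class 2 and 3.7 and 2.07 CPM in class 3 (log2 difference -4.83 ± 0.40 (SE), adjusted p = 9.71e-05). Socs3, a brake on cytokine signalling, had 189.9 and 203 CPM in class 2 and 9.99 and 4.1 CPM in class 3 (log2 difference -4.81 ± 0.41 (SE), adjusted p = 0.000108). The chemokine Ccl6 had 3358 and 2196 CPM in class 2 and 424 and 181 CPM in class 3 (-3.20). The classes did not overlap for these 3 genes. Tnf did not pass, at 24.7 and 37.9 CPM in class 2 and 21.1 and 28.4 CPM in class 3 (adjusted p = 0.443).

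Lipid handling and lysosomal genes followed in part. Of 24 genes of lipid uptake and efflux 14 were lower (median -1.77). Apoe, the apolipoprotein that carries cholesterol away, had 2445 and 2593 CPM in class 2 and 184.5 and 73.7 CPM in class 3 (log2 difference -4.29 ± 0.41 (SE), adjusted p = 0.000206). Abca1, a cholesterol exporter, had 11.4 and 15.8 CPM in class 2 and 0.38 and 1.03 CPM in class 3 (log2 difference -4.25). Abcg1, another, had 60.2 and 69.2 CPM in class 2 and 11.8 and 16.7 CPM in class 3 (-2.18). Lpl, which frees fatty acids from lipoproteins, had 231 and 441 CPM in class 2 and 55 and 49.6 CPM in class 3 (-2.68). Pparg, the nuclear receptor that switches on Cd36 and Fabp4, had 29.4 and 67.6 CPM in class 2 and 3.15 and 2.52 CPM in class 3 (log2 difference -4.09 ± 0.49 (SE), adjusted p = 0.000666). All 5 genes had higher values in both class 2 libraries. Of 35 lysosomal genes 16 were lower and 3 higher (median -0.59); the lower count was 10 with all 14 primary libraries, 8 in the test against 1.5-fold, 12 without class 2 library 1, 13 without class 2 library 2, 13 without class 3 library 1 and 9 without class 3 library 2. The higher count was 1 in the test against 1.5-fold, 1 without class 2 library 1, 2 without class 2 library 2, 1 without class 3 library 1 and 1 without class 3 library 2. Ctss, a protease that trims the invariant chain, had 3251 and 2876 CPM in class 2 and 662 and 522 CPM in class 3 (-2.37), while Lamp1, a main membrane protein of lysosomes, had 2037 and 1930 CPM in class 2 and 1933 and 1651 CPM in class 3 (adjusted p = 0.57). Cd63, a granule and lysosome membrane protein, was higher, at 51.6 and 35 CPM in class 3 and 4.59 and 2.87 CPM in class 2 (log2 difference 3.51 ± 0.34 (SE), adjusted p = 0.000199).

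Transcription factors of the myeloid lineage divided. Of 41 listed, 24 were lower in class 3 and 5 higher (Tfec, Gfi1, Cebpe, Irf8 and Runx1), with a median of -1.0. The higher count was 1 with all 14 primary libraries, 3 without class 2 library 1, 4 without class 2 library 2, 4 without class 3 library 1 and 3 without class 3 library 2. Irf8, required for the monocyte lineage, had 689 and 593 CPM in class 2 and 1344 and 1379 CPM in class 3 (log2 difference 1.09 ± 0.12 (SE), adjusted p = 0.000435). Cebpe, which drives granule production in granulocytes, had 10.2 and 9 CPM in class 2 and 35.9 and 33 CPM in class 3 (log2 difference 1.84 ± 0.31 (SE), adjusted p = 0.00335), although with all 14 primary libraries fitted its adjusted p was 0.0615. Cebpb, needed for nonclassical monocytes, had 2644 and 2881 CPM in class 2 and 946 and 963 CPM in class 3 (-1.53). Among 30 growth factor and cytokine receptors 16 were lower and 3 higher, and the count of higher genes was 1 without class 2 library 1, 1 without class 2 library 2, 1 without class 3 library 1 and 1 without class 3 library 2. The receptor chain Il13ra1 had 239 and 368 CPM in class 2 and 27.6 and 14.4 CPM in class 3 (-3.85) and Tgfbr2, the TGF-beta receptor, 92.8 and 141 CPM in class 2 and 19.1 and 8.63 CPM in class 3 (-3.08). Csf2ra, the GM-CSF receptor, had 595 and 517 CPM in class 2 and 733 and 752 CPM in class 3 (adjusted p = 0.0613), and passed as higher with total counts (adjusted p = 0.00678). Of 29 migration and adhesion genes 14 were lower, and the count was 6 in the test against 1.5-fold, 12 without class 2 library 1, 8 without class 2 library 2, 9 without class 3 library 1 and 8 without class 3 library 2. The chemerin-binding receptor Ccrl2 differed by -4.13, while the laminin-binding integrin chain Itga6 was higher, at 32.4 and 39.5 CPM in class 3 and 3.96 and 6.38 CPM in class 2 (log2 difference 2.80 ± 0.31 (SE), adjusted p = 0.000414).

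Metabolic and ribosomal lists held smaller differences, and several counts moved with the scaling. Among 82 cytosolic ribosomal proteins 5 were higher and 2 lower, 8.54% against the background of 24.2%, with a median of 0.10 that was -0.06 in 1 alternative. The higher count was 21 with total counts, 9 in the 4-library fit, 0 in the test against 1.5-fold, 3 without class 2 library 1, 0 without class 2 library 2, 1 without class 3 library 1 and 0 without class 3 library 2. The lower count was 1 to 3 with a library left out. Among 77 nuclear genes of oxidative phosphorylation 11 were higher and 2 lower (16.9%). The higher count was 37 with total counts, 25 in the 4-library fit, 0 with all 14 primary libraries, 18 without class 2 library 1, 2 without class 2 library 2, 2 without class 3 library 1 and 4 without class 3 library 2. Of 25 ribosome biogenesis genes 8 were higher and 1 lower, and the higher count was 5 without class 2 library 1, 6 without class 2 library 2, 5 without class 3 library 1 and 5 without class 3 library 2. None passed as lower with any 1 of the 4 libraries left out. Dkc1, which modifies ribosomal RNA, had 35.6 and 27.6 CPM in class 2 and 79.3 and 74.5 CPM in class 3 (log2 difference 1.28 ± 0.17 (SE), adjusted p = 0.00116). Glycolysis genes moved both ways, with 7 of 23 higher and 4 lower; with total counts 11 were higher, and 2 were lower without class 3 library 1. Gapdh, a glycolytic enzyme, had 328 and 373 CPM in class 2 and 639 and 678 CPM in class 3 (0.91), while Pfkfb3, which speeds glycolysis, had 60.1 and 57.4 CPM in class 2 and 15.7 and 17.5 CPM in class 3 (-1.82). Of 22 cholesterol synthesis genes 4 were higher and 2 lower, 27.3%, near the background. The higher count was 7 with total counts, 1 without class 2 library 1, 2 without class 2 library 2, 1 without class 3 library 1 and 2 without class 3 library 2. No gene passed as lower with total counts or with any 1 of the 4 libraries left out. Fdps, which makes farnesyl diphosphate, had 24.2 and 22.1 CPM in class 2 and 95.6 and 94.3 CPM in class 3 (log2 difference 2.04 ± 0.16 (SE), adjusted p = 8.04e-05).

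**Figure D4:**
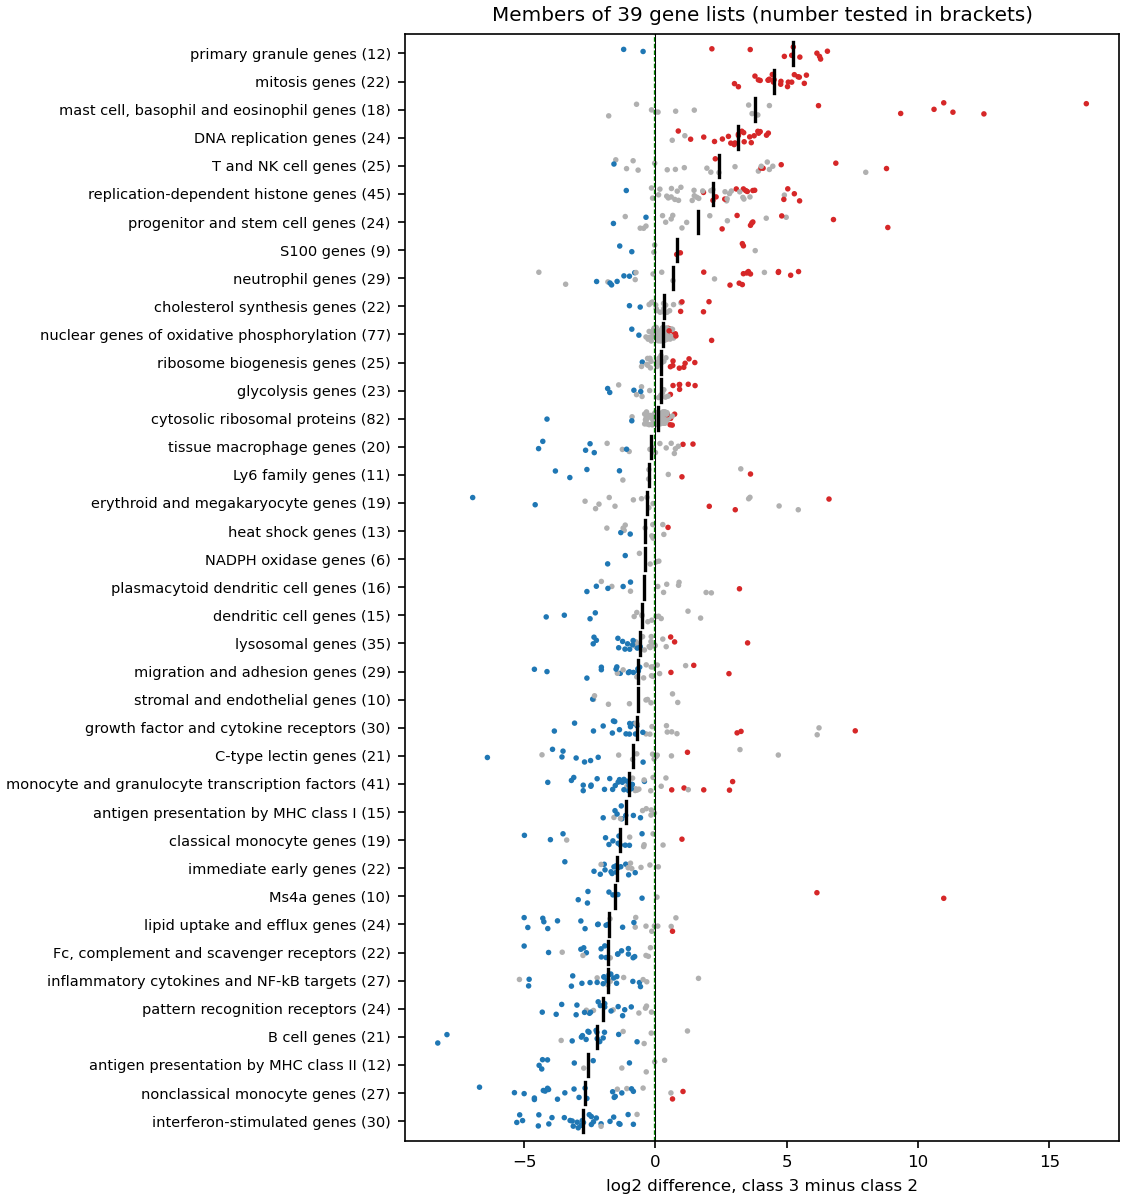
Log2 difference, class 3 minus class 2 (x axis), of each tested member of 39 gene lists (rows, ordered by median; number tested in brackets); red, higher in class 3; blue, lower; grey, not past the threshold; black bar, the list's median; dashed line, the median of all genes tested (-0.07). The medians run from -2.77 for the interferon-stimulated genes to 5.22 for the primary granule genes. The points farthest to the right in the basophil list belong to genes with few or 0 counts in class 2, whose fitted difference depends on the prior count.

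Markers of other cell types that a marrow sort could hold differed widely in their summed levels. T and NK cell genes summed to 26.9 and 47.9 CPM in class 2 and 40 and 25.7 in class 3. Of 25 of them 6 were higher and 1 lower, a share of 28% that is near the background of 24.2%. The higher count was 1 with all 14 primary libraries, and it fell when any 1 library of classes 2 and 3 was left out. The list's median was 2.42, or 1.1 with genes at 0 counts in a class set at their bound. Cd3e, a chain of the T cell receptor complex, had 7 and 3 counts in class 2 and 5 and 2 counts in class 3. The NK cell marker Ncr1 had 0 and 0 counts in class 2 and 11 and 21 counts in class 3 (adjusted p = 0.015). Its call was lost with all 14 primary libraries (adjusted p = 0.362). Klrb1c, another NK cell marker, had 0 and 4 counts in class 2 and 67 and 18 counts in class 3. Erythroid and megakaryocyte genes summed to 17.1 and 20.6 CPM in class 2 and 55 and 36.9 in class 3, against 4129 and 5254 in class 4. Of 19 of them 3 were higher and 2 lower, with a median of -0.32. This share of 26.3% is near the background of 24.2%. The lower ones were Klf1 (adjusted p = 0.00225) and Car1, at 34 and 13 counts in class 2 and 0 and 2 counts in class 3 (adjusted p = 0.00637). With all 14 primary libraries both calls were lost (adjusted p = 0.129 and 0.133). Itga2b, the platelet integrin chain also found on progenitors, had 2 and 2 counts in class 2 and 306 and 177 counts in class 3 (adjusted p = 0.00374), a call lost without class 2 library 1 (adjusted p = 0.0503). Plasmacytoid dendritic cell genes summed to 465 and 501 CPM in class 2 and 362 and 380 in class 3. Stromal and endothelial genes summed to 12.7 and 11.5 CPM in class 2 and 7.19 and 5.14 in class 3. Tissue macrophage genes summed to 3123 and 3455 CPM in class 2 and 463 and 291 in class 3, with Apoe giving most of it in class 2. Of 20 of them 2 were higher and 6 lower, a share of 40% against the background of 24.2%, with a median of -0.15. C1qb, a chain of complement C1q, had 6.42 and 6.62 CPM in class 2 and 10.4 and 6.87 CPM in class 3 (adjusted p = 0.266), against 367 and 290.2 in class 1 and 266 and 216 in class 4. C1qa, another chain, had 3.18 and 2.385 CPM in class 2 and 6.5 and 5.2 CPM in class 3 (log2 difference 1.05, adjusted p = 0.0141). Its call was lost with all 14 primary libraries (adjusted p = 0.169). The part of these other cell types in the differences between classes 2 and 3 was not tested.

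The genes called here were then read in libraries that took no part in the call. In the nonclassical and classical monocytes, the 1614 genes higher in class 3 had a median of -0.65 (nonclassical minus classical, log2), and 24.5% of them were above 0. The 1696 genes lower in class 3 had a median of 0.27, with 60% above 0, and all genes tested a median of -0.11, with 45.1% above 0. Intermediate minus classical gave -0.17 for the higher and -0.17 for the lower genes, against -0.09 for all genes. The 2 sets thus did not differ there in the main fit, but their medians moved apart under some of the alternatives given below. In the ER-Hoxb8 clones, the monocytic minus progenitor difference had a median of -0.70 for the genes higher in class 3 and 1.06 for those lower, against -0.03 for all genes. Each of the 24 monocytic libraries was also set against the mean of all progenitor libraries, not against the progenitor library of its own clone. The median of the higher genes then ran from -1.7 to -0.09 and that of the lower genes from 0.16 to 1.64. Each monocytic library thus lay below 0 for the former and above 0 for the latter. Genes share depth and base composition within libraries and are not independent, so no p is given.

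By list, the mitosis genes, higher in class 3, had a median of -2.71 for nonclassical minus classical and -0.54 for monocytic minus progenitor. The nonclassical list had 3.15 and 2.24. Interferon-stimulated genes had -0.06 between the subsets, near the median of all genes, but 3.08 in the clones, and pattern recognition receptors -0.56 and 4.22. Primary granule genes, high in class 3, had -0.45 and -0.26: Mpo itself was at -0.82 and -2.49, and Elane at -4.94 and 3.52. MHC class II genes had 5.16 between nonclassical and classical monocytes and 0.45 in the clones; B cell genes had 5.81 in the former, and their part there was not tested.

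**Figure D5:**
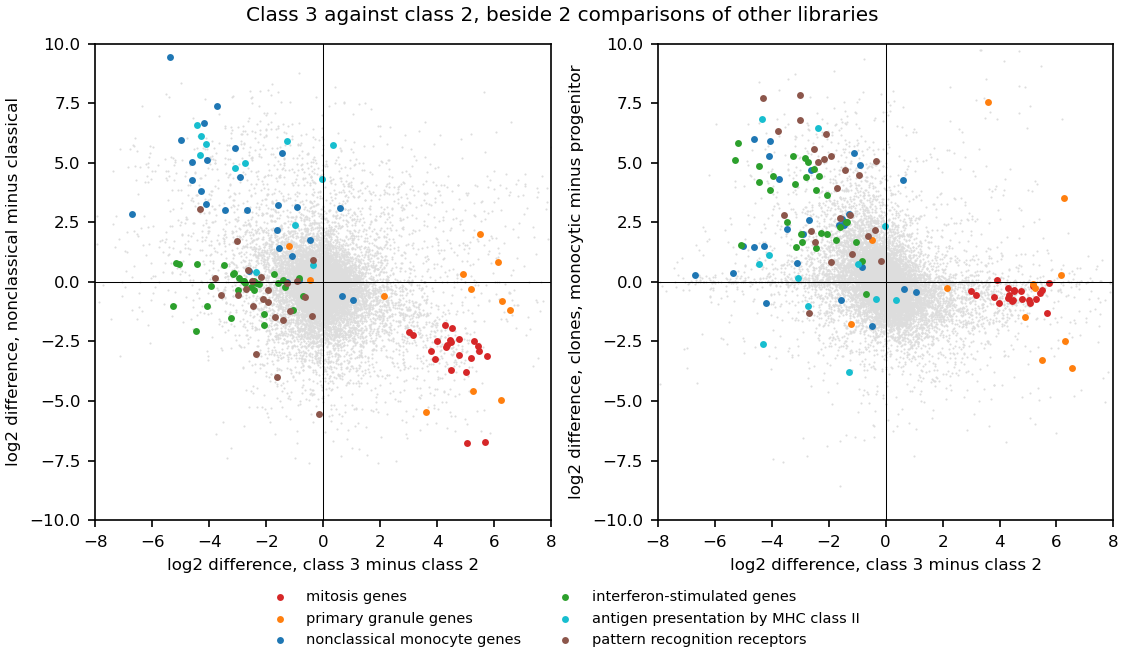
Left, log2 difference of nonclassical minus classical monocytes, and right, of monocytic minus progenitor clone libraries (y axes), against class 3 minus class 2 (x axis); grey, genes tested; colours, members of 6 lists; 25 and 26 genes lie outside the axes. Mitosis genes fall at the lower right of the left panel and nearer to 0 in the right panel, with a median of -0.54 there. Nonclassical genes lie mostly at the upper left of both.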

How the data were processed

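Bulk RNA was sequenced from 62 mouse libraries; the class 2 and class 3 libraries were taken by their titles. The deposited values are raw counts of reads per gene, which the authors made with STAR 2.7.3a, HTSeq 0.6.0 and the build mm9, per the submitters' processing notes; strand, annotation release and filters are not given in the sources used here. The table holds 37620 genes with their names. One column (1) matched none of the labelled samples and was left out.

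Counts were analysed with edgeR 4.0.16 (limma 3.58.1, R 4.3.3). The 8 libraries of the 4 classes were fitted together with filterByExpr (minimum count 10), TMM factors (0.891 to 1.091 in classes 2 and 3) and no block. A 2-sided quasi-likelihood test of class 3 minus class 2 was adjusted by Benjamini-Hochberg (threshold 0.05). The biological coefficient of variation was 0.377, with 4 residual degrees of freedom. Log2 CPM used a prior count of 2. Genes at 0 counts in a class are given as bounds from a floor of 3 counts over its libraries; bounds cover counting error only. The 2 libraries of a class differed by more than sampling noise. The fit was also run on simulated data, but the outcome is not given here and lends no support to the p-values.

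Members and lists were chosen with earlier results of these data known. Lists are described by counts and medians, without a test. Named genes were Csf1r, Ly6c2, Ccr2, Cx3cr1, Nr4a1, Cd34, Kit, Flt3 and Mpo; the 14 genes with the largest increase and the 14 with the largest decrease (called, mean log2 CPM of at least 3, groups not overlapping); and, in each list, up to 4 called members and the 1 not called that was expressed most. Others, such as Lyz2, Itgam, Spn and the genes whose sequences are printed, were chosen after their values were seen. Alternatives were DESeq2 size factors, DESeq2 1.42.0, total counts, no filter or a minimum count of 30, 4 or 14 libraries, a replicate block, a test against 1.5-fold, and each library left out. Clone and subset libraries were read only as log2 CPM differences.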

Additional observations from a re-analysis of the deposited data

How the results depend on the processing

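Of 202 named genes past the threshold, 138 stayed past it under every alternative in which they were tested, and none of the 249 named genes changed direction. Genes called in both fits kept their direction: 3205 shared with DESeq2 size factors, 2786 with total counts, 3295 with DESeq2, 3189 with the 4-library fit and 2001 with all 14 libraries. With all 14 primary libraries 2005 genes passed (970 higher, 1035 lower), and in the test against 1.5-fold 1815 (939 and 876). The 4-library fit called 2522 higher. Leaving out 1 library gave 1922 to 2170 genes, 953 to 1073 higher and 889 to 1148 lower. With 1 library left, a class is assumed to vary like the others.

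The sources used here do not say whether same-numbered libraries share an animal or sort. Across genes, deviations of same-numbered class 2 and class 3 libraries correlated at 0, and other pairs at -0.01 to 0.07. Such a correlation over all genes cannot exclude a shared sort. Summed immediate early genes were higher in library 2 than in library 1 of every class. They stood at 32160 and 51300 CPM in class 2 and 16000 and 19920 in class 3. The fit with a replicate block called 3212 genes (1566 higher, 1646 lower), 3076 of them shared. Of the named genes, 3 gained a call with the block (Fos, Klf2 and Hspa1b) and 10 lost theirs.

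In the independent libraries, the nonclassical minus classical median of the genes higher in class 3 was -0.48 with total counts, -1.13 against 1.5-fold and -1.06 to -0.90 with a library left out. That of the lower genes was 0.44 with total counts, 0.19 with 4 libraries, 0.44 with 14, 0.51 against 1.5-fold and 0.31 to 0.44 with a library left out. The fit of 14 libraries includes the classical, intermediate and nonclassical ones, so in that setting they took part in the call. For intermediate minus classical, the lower genes had -0.14 with DESeq2 size factors, -0.05 with total counts, -0.05 with 14 libraries, -0.19 with the replicate block, -0.02 against 1.5-fold and -0.18 to -0.06 with a library left out. The higher genes had -0.12 with total counts, -0.23 with 14 libraries, -0.27 against 1.5-fold and -0.31 to -0.23 with a library left out. For the clones, the lower genes had 1.54 against 1.5-fold and 1.26 to 1.45 with a library left out. The cause was not tested. List medians changed sign in 4 of 40 lists: ribosomal proteins, erythroid and megakaryocyte, tissue macrophage and sex-linked genes.

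With 2 libraries a class, a gene that missed the threshold is not shown to be equal between the classes. At the unadjusted p under 0.05, 4791 genes passed. The counts, whose strand setting is not given in the sources used here, cannot separate antisense or near-identical genes.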
